A study of Mus musculus with 8 samples.

Results

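Antigen-presenting myeloid cells of the mouse organ of Corti, the sensory epithelium of the cochlea, were examined in 8 single-cell RNA-seq libraries. They were chosen by their own RNA, as counts of unique molecular identifiers (UMIs), each of which tags 1 captured transcript. The libraries held 3972800 to 13423524 UMIs each. Of 8061 cell barcodes, 6023 had at least 500 detected genes and under 25% mitochondrial UMIs and were kept. A kept barcode was a member when H2-Aa, H2-Ab1 and H2-Eb1 together had at least 5 UMIs and at least 2 of Csf1r, Lyz2, Itgax, Cx3cr1 and C1qa were detected. It also had to have no Cd79a UMI, a B cell gene, and at most 2 UMIs of Col1a2 and Col3a1, which mark stromal cells. This gave 59 members, 0.980% of the kept barcodes. Class II and myeloid genes are therefore high in the members by construction, and their levels are given as a description.

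All animals carried Fgfr3iCre, a Cre recombinase activated by tamoxifen and driven from a supporting cell gene, with the Cre-dependent transgene Atoh1-HA, the reporter Chrna9-GFP and a tdTomato reporter of Cre activity. The transgene is thus directed to supporting cells and not to myeloid cells. Tamoxifen was given at P12 and P13 to the animals of 5 libraries, collected at P26 (Coch + Tmx P26, n = 3) or P33 (Coch + Tmx P33, n = 2), called induced here. No tamoxifen was given for Coch P33 (n = 1) or for Coch P12 (n = 2), called uninduced, and how many animals went into a library is not in the labels. Induction and age overlapped, because only uninduced animals were sampled at P12, and there was 1 uninduced library at P33.

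MHC class II molecules are pairs of an alpha and a beta chain that carry peptides from engulfed proteins to the cell surface, where CD4 T cells read them. In mice, H2-Aa and H2-Ab1 encode one such pair and H2-Eb1 the beta chain of another. Cd74 encodes the invariant chain that escorts new class II molecules, and H2-DMa and H2-DMb1 encode the exchange factor that loads their peptides. Dendritic cells, B cells and some macrophages make these proteins, and their genes are switched on together by the coactivator Ciita, which acts at promoters that carry a set of shared boxes. Macrophages live in the cochlea from before birth, and only some of them carry class II.

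The Y box of class II promoters contains the letters TGATTGG, and several of the genes that define or accompany the members hold it. In the RefSeq promoters of build GRCm38.p6, from 250 bases before to 50 after a gene's start, 14 of the 18 genes of the class II presentation list had an entry, and 7 held these letters on the coding strand. All 7 were among the 8 H2 genes with an entry, H2-DMa being the other. H2-Ab1 and Cd74 are not shown here. Over all 32851 promoters, 7.82% held the letters on either strand. The 30 bases around the box are shown for the rule genes H2-Aa and H2-Eb1 and for the exchange factor's beta chain genes. The box is in capitals, and the sequences run 5′ to 3′ on the strand of the gene, from the reference genome.
H2-Aa: agagaattttcTGATTGGttctggcgagtt
H2-Eb1: tcctttgatgcTGATTGGctcccagcactg
H2-DMb1: gattcactcagTGATTGGtctgacctgcct
H2-DMb2: aagtcacttagTGATTGGactgacttaact
These lie at chr17:34287855-34287884 on the minus strand for H2-Aa, and on the plus strand at chr17:34305795-34305824 for H2-Eb1, chr17:34153117-34153146 for H2-DMb1 and chr17:34145146-34145175 for H2-DMb2. The first letter of the box was 50, 61, 63 and 92 bases upstream of the start. H2-Aa and H2-Eb1 hold the box at like distances in the reference genome. Their transcripts were counted at very different levels, as given below, and a link between the box and the counts was not tested.

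The members carried leukocyte RNA. Of 8 leukocyte genes that the rule did not use (Ptprc, Cd68, Aif1, Fcer1g, Tyrobp, Cd52, Laptm5 and Spi1), at least 3 were detected in 58 of the 59 members and at least 6 in 53. Tyrobp, a signalling adaptor of myeloid receptors, was detected in 58 members, and so was Fcer1g, the Fc receptor gamma chain. The member with under 3 was the only member of Coch P12 replicate 2. That barcode had 36646 UMIs, and its 5 class II UMIs were all H2-Ab1 with no Cd74. This member goes against the label, and the P12 shares are given with and without it. Among the rule's myeloid genes, C1qa was detected in 55 members, Csf1r and Lyz2 in 53 each, Cx3cr1 in 46 and Itgax in 10.

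RNA of other cell types was measured in each member. At least 100 UMIs of the glia and neuron list or of the hair cell list, or at least 10% erythroid UMIs, were found in 4 members. They were the Coch P12 replicate 2 member, a Coch + Tmx P26 replicate 3 member with 194 Mbp UMIs of 4139, a Coch P33 member with 3968 Hbb-bs UMIs of 13139, and a Coch + Tmx P33 replicate 1 member with 118 hair cell UMIs of 32131. The last of these also held 44 Atoh1 UMIs, the only Atoh1 in any member. No member was among the barcodes with high doublet scores, and no member's barcode occurred in a second library. At least 3 UMIs of 12 stromal genes were present in 23 members, from 0 in Coch P12 replicate 1 to 7 in Coch P33. With these 23 left out, Coch + Tmx P26 replicate 3 had no member.

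Free class II RNA was measured in stromal barcodes. Of 1022 kept barcodes with at least 10 collagen UMIs and fewer than 2 of the myeloid genes, cells that should lack class II, 75 (7.34%) had a class II UMI and 1 had at least 5. Their median depth was 9619 UMIs, against 5173 in the members. Most were from P12, and the share with a class II UMI was higher in some later libraries, at 36.4% of 11 barcodes in Coch + Tmx P33 replicate 1, 30.8% of 13 in Coch P33 and 18.75% of 32 in Coch + Tmx P26 replicate 3, with median depths of 19562, 21571 and 14104.5 UMIs and at most 2 class II UMIs in a barcode. Just outside the threshold, 6 otherwise qualifying barcodes had 3 class II UMIs and 4 had 4. Just inside it, 1 had 5, which was the Coch P12 replicate 2 member, 3 had 6 and 1 had 7. The comparison population was 626 barcodes that met the same criteria with at most 1 class II UMI, called class II-low, and 30 barcodes with 2 to 4 belonged to neither.

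The share of members was lowest in the P12 libraries. They were 2 of 1382 kept barcodes in Coch P12 replicate 1 (0.145%, exact 95% binomial interval 0.0175% to 0.522%) and 1 of 881 in replicate 2 (0.114%, 0.00287% to 0.631%). In Coch P33 they were 9 of 581 (1.55%, 0.711% to 2.92%). In Coch + Tmx P26 they were 3 of 801 (0.375%), 18 of 569 (3.16%) and 4 of 590 (0.678%). In Coch + Tmx P33 they were 11 of 502 (2.19%) and 11 of 717 (1.53%). Both P12 libraries lay below all 6 later ones, while the 3 Coch + Tmx P26 libraries spanned the values of every other later library.

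**Figure D1:**
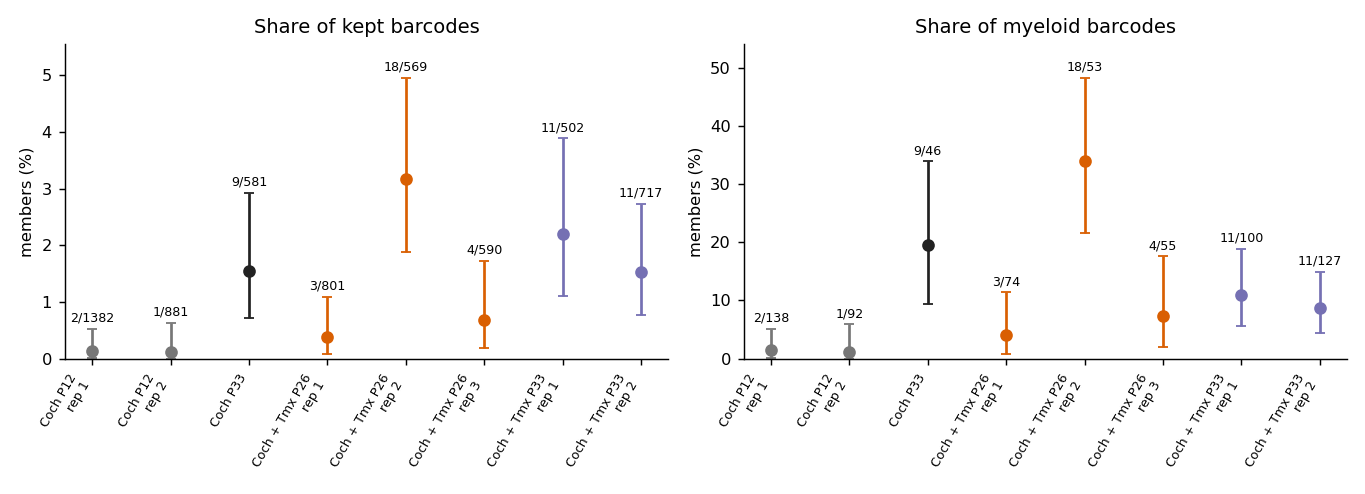
Members as a percentage of kept barcodes (left) and of myeloid barcodes, members plus class II-low (right), 1 point per library with its exact 95% binomial interval, which covers counting error only. Counts stand above each interval. Both Coch P12 libraries are lowest in both panels and Coch + Tmx P26 replicate 2 is highest, at 3.16% and 34.0%.

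The share of kept barcodes was 1.58% ± 1.01 (SD, n = 6) at the later ages against 0.129% ± 0.0221 (SD, n = 2) at P12, a difference of 1.45 percentage points. The groups did not overlap, yet with 2 libraries against 6 the two-sided exact permutation test could not go below p = 0.0714, the value it gave (adjusted p = 0.214, Benjamini-Hochberg over 6 share comparisons). Left without the member that goes against the label, Coch P12 replicate 2 had none, and a count of 0 of 881 allows a share of up to 0.341%. With the 23 members that held stromal UMIs left out, the groups overlapped and the difference was 0.907 percentage points (two-sided exact permutation p = 0.357, adjusted p = 0.536). Induced and uninduced libraries overlapped, at 1.59% ± 1.13 (SD, n = 5) and 0.602% ± 0.820 (SD, n = 3; exact permutation p = 0.214, adjusted p = 0.429). Coch + Tmx P33 and Coch + Tmx P26 also overlapped, with 1.86% ± 0.465 (SD, n = 2) and 1.41% ± 1.53 (SD, n = 3; exact permutation p = 0.8, where 0.2 is the smallest possible, adjusted p = 0.960). None of these differences passed the threshold of 0.05. The study calls its replicates biological, but nothing in the labels says that libraries are from separate animals, so the p-values measure the spread between libraries, which may be technical.

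Among myeloid barcodes, the P12 libraries were again lowest. The members were 1.45% and 1.09% of the members plus class II-low barcodes in the Coch P12 libraries and 19.6% in Coch P33. They were 4.05%, 34.0% and 7.27% in Coch + Tmx P26 and 11% and 8.66% in Coch + Tmx P33. Without the member that goes against the label, Coch P12 replicate 2 had 0 of 91, which allows a share of up to 3.30%. The later libraries averaged 14.1% ± 11.1 (SD, n = 6) against 1.27% ± 0.256 (SD, n = 2), again without overlap (exact permutation p = 0.0714, adjusted p = 0.214). The induced libraries averaged 13.0% ± 11.99 (SD, n = 5) and the uninduced 7.37% ± 10.6 (SD, n = 3; exact permutation p = 0.643, adjusted p = 0.960). Coch + Tmx P33 averaged 9.83% ± 1.65 (SD, n = 2) and Coch + Tmx P26 15.1% ± 16.4 (SD, n = 3; exact permutation p = 1.0, adjusted p = 1.0), and without Coch + Tmx P26 replicate 2 that difference changed sign. Class II-low numbers also varied, from 35 to 136 per library.

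The rule missed some class II-rich leukocytes, at P12 as well. Of 94 kept barcodes with at least 5 class II UMIs, 35 were not members, 15 of them for Cd79a, 9 for collagen and 11 for too few myeloid genes. In Coch P12 replicate 1, 3 of these 11 had 222, 227 and 269 class II UMIs, more than either member of that library, with 4 to 9 Cd209a and 3 to 9 Mgl2 UMIs but 0 or 1 of the 5 myeloid genes. A Coch P33 barcode held 34 class II UMIs with 32 Ccr7 and 50 Fscn1, genes of dendritic cells that have left a tissue. Siglech and Irf8, which are high in plasmacytoid dendritic cells, had 10 and 26 UMIs in a barcode of Coch + Tmx P26 replicate 2 and 5 and 10 UMIs in one of Coch + Tmx P33 replicate 2. With the myeloid genes dropped from the rule and at least 3 leukocyte genes asked for in their place, the counts in Coch P12 became 5 and 0 (0.362% and 0%), still below the 0.375% of the lowest later library but by a much smaller margin.

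Class II RNA varied widely among the members. Their summed H2-Aa, H2-Ab1 and H2-Eb1 counts ran from 5 to 728 with a median of 61, and 24 members had at least 100. Per 10000 UMIs of the cell, the median was 142 over all members. By library it was 236 (Coch + Tmx P26 replicate 1), 125 (replicate 2), 362 (replicate 3), 154 (Coch + Tmx P33 replicate 1), 371 (replicate 2), 77.8 (Coch P12 replicate 1) and 99.9 (Coch P33). The lowest and highest cells of Coch + Tmx P33 replicate 1 were 5.78 and 710, so the ranges of the later libraries overlapped widely.

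**Figure D2:**
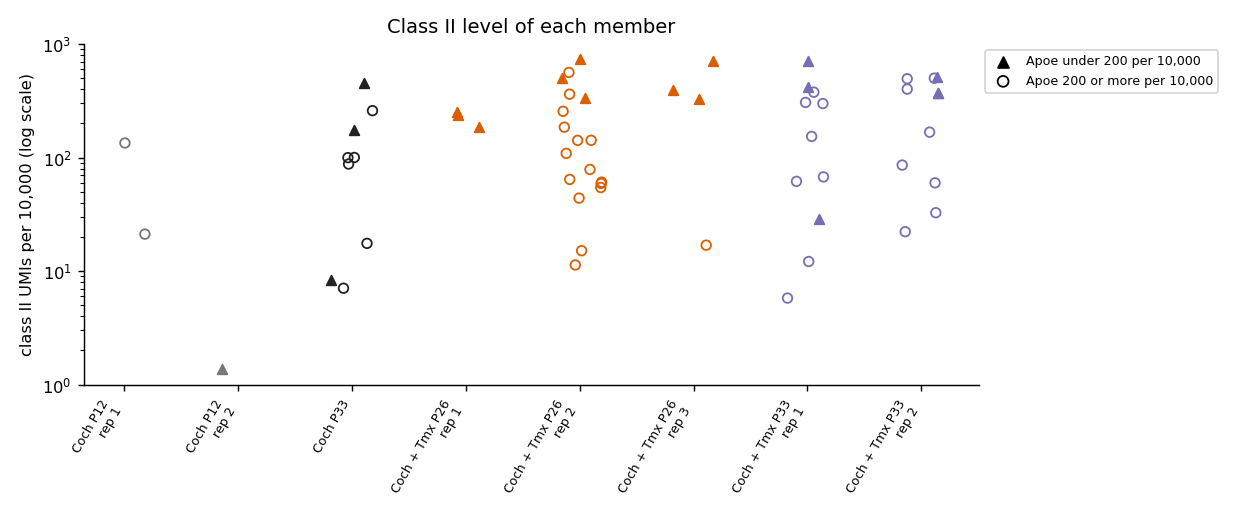
Class II UMIs (H2-Aa, H2-Ab1 and H2-Eb1) per 10000 UMIs of the cell on a log scale, 1 point per member by library. Filled triangles are members with under 200 Apoe UMIs per 10000 and open circles those with 200 or more. The triangles of the induced libraries lie high except for 1 in Coch + Tmx P33 replicate 1, and the lone triangle of Coch P12 replicate 2 is the member that goes against the label.

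The alpha and beta chain genes of the first pair were counted together, and the third rule gene was nearly absent. H2-Aa was detected in 57 members with 4762 UMIs in all and H2-Ab1 in 58 with 3500. H2-Eb1 had 45 UMIs over 20 members and at most 6 in a cell, 0.945% of the H2-Aa count, so no member depended on it. In 61 kept barcodes with at least 3 Cd79a UMIs, which held 154 H2-Aa, 122 H2-Ab1 and 9 H2-Eb1 UMIs, it was 5.84%, and in all kept barcodes 2.75%, with 7.23% in Coch P12 replicate 1. In Coch P12 replicate 2, all kept barcodes held 22 H2-Aa and 26 H2-Eb1 UMIs. The cause was not tested, and the labels do not give the strain. Cd74 was detected in 58 members with 10281 UMIs, up to 722 in a cell. H2-DMa was detected in 49 members, H2-DMb1 in 45, H2-DMb2 in 24 and Ciita in 10, with 11 UMIs in all.

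Members and class II-low cells of the same library were compared in the 4 libraries with at least 5 of each (Coch + Tmx P26 replicate 2, both Coch + Tmx P33 and Coch P33). UMIs were summed per library and scaled to the same total as counts per 1000000 (CPM), and the ratio was taken as log2 of CPM + 10. The choice of cells fixes part of this contrast, so it has no test. Of 5854 genes outside the rule with a mean of at least 20 CPM, 50 were at least 2-fold higher in members in all 4 libraries (0.854%) and 196 were at least 2-fold lower (3.35%). The median over all genes tested was -0.30. Where a sum had no UMI of a gene, its ratio depends on the added 10 CPM and is no bound, and medians of lists take in such ratios. Each CPM is relative to the sum, and the median ratio of the tested genes ran from -0.14 to -0.44 by library.

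Of the class II presentation list, 11 genes outside the rule were tested, and Cd74, H2-DMa, H2-DMb1 and H2-DMb2 were higher in every library, with a list median of 1.42. Cd74 was at 28445, 18054, 38509 and 18064 CPM in the members of Coch + Tmx P26 replicate 2, Coch + Tmx P33 replicates 1 and 2 and Coch P33, in that order. It was at 1056, 224, 171 and 251 CPM in their class II-low cells, a median log2 ratio of 6.19. H2-DMb1 was at 709, 213, 911 and 547 CPM against 51.0, 34.0, 28.9 and 25.98 (median log2 ratio 3.75). In Coch + Tmx P33 replicate 1, 36.0% of the members' UMIs came from the barcode with hair cell RNA, and without it Cd74 was at 26953 and H2-DMb1 at 332 CPM. The lysosomal proteases were mixed, as the median log2 ratio was 1.58 for Ctss, which trims the invariant chain, but 0.31 for Lgmn, -0.04 for Ctsb, -0.58 for Ctsl and -0.92 for Ctsd.

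**Figure D3:**
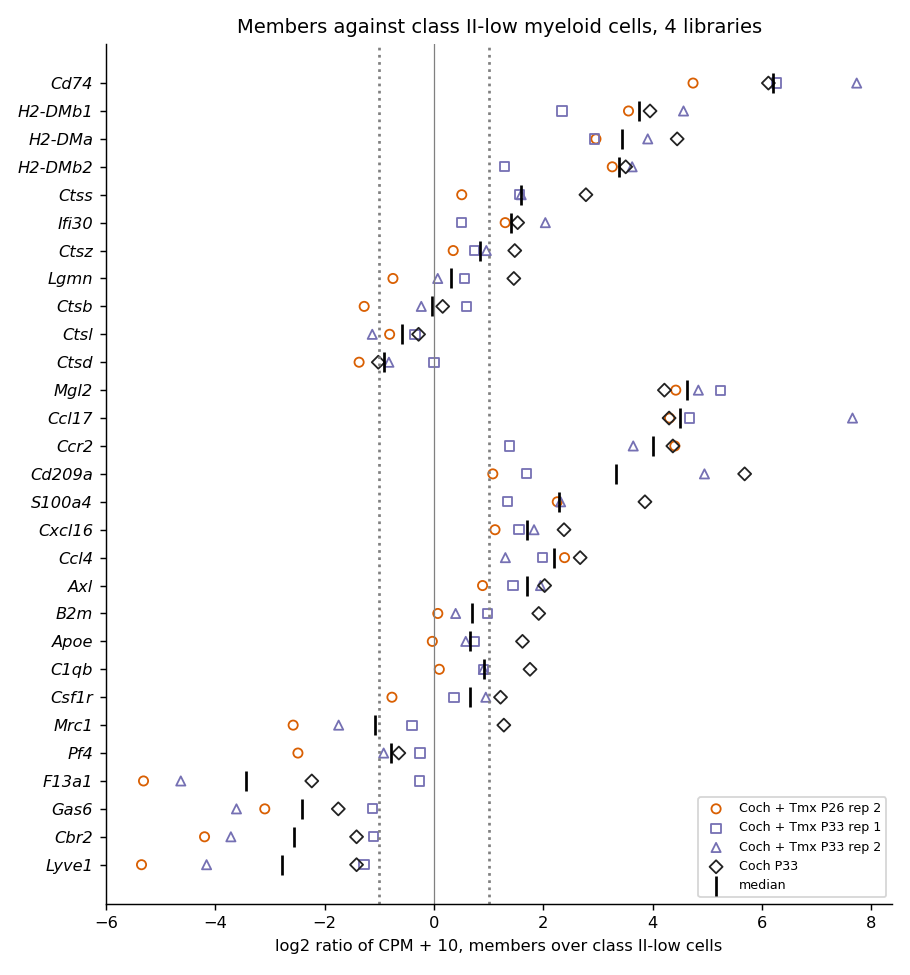
Log2 ratio of CPM + 10 in members over class II-low cells, 1 symbol per library and a bar at the median, for class II presentation genes, genes of the other lists and macrophage genes; dotted lines mark a 2-fold ratio. Cd74, H2-DMa, Mgl2 and Ccl17 lie beyond the line in all 4 libraries, and Apoe and C1qb lie nearer to 0.

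Genes of dendritic cells and monocytes had some of the largest ratios. In the conventional dendritic cell list, 2 of 9 tested genes were higher in every library (list median 0.98), the lectins Mgl2 and Cd209a. Mgl2 was at 642, 772, 597 and 244 CPM in members against 20.4, 10.7, 11.3 and 3.71 in class II-low cells (median log2 ratio 4.63). The highest cell held 17 of 58, 50 of 69, 14 of 38 and 13 of 17 Mgl2 UMIs, in the same order. Cd209a was uneven, at 11.1, 22.4, 298 and 503 CPM, and had no UMI in the class II-low cells. The first of these values is 1 UMI and the second 2 UMIs, under the limit of 3 counts, so in those libraries its 2-fold line was passed by the added 10 CPM and shows no difference. In the monocyte list, 2 of 9 were higher (list median 1.01), S100a4 and Ccr2, the receptor that draws monocytes into tissue. Ccr2 was at 310, 33.6, 236 and 273 CPM (median log2 ratio 4.01). The highest cell held 10 of 28, 3 of 3, 8 of 15 and 14 of 19 Ccr2 UMIs. The second of these sums is at the limit of 3 counts. Ccl17, a chemokine for CCR4-bearing T cells and the only one of 5 tested genes of the migratory dendritic cell list to be higher, was at 188, 246, 2167 and 187 CPM in members and had 1 UMI in all class II-low cells of these libraries. In every library most of these UMIs came from 1 cell, with 16 of 17, 22 of 22, 95 of 138 and 13 of 13, in the same order.

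The other higher genes with the largest median log2 ratios were Plbd1 (4.00), Crip1 (3.49), Napsa (3.40), Lsp1 (3.31), Bcl2a1a (3.22), Sirpb1b (3.09) and Sirpb1c (2.92). The counts of Bcl2a1a, Sirpb1b and Sirpb1c are uncertain, because near-identical copies of these genes can share reads. Among cytokines and chemokines, Ccl4 (2.19) and Cxcl16 (1.69) were higher in all 4 libraries, 2 of 19 tested, but neither was against the stricter cells (0.67 and 0.74), where the list median was -0.12. None of 13 class I presentation genes (list median 0.68), 24 interferon-stimulated genes (0.45), 4 costimulation genes (0.97) or 11 pattern and Fc receptor genes (0.85) was, and these medians lay above the -0.30 of all genes. Against the stricter class II-low cells described below, that order turned around for 3 of these lists, at -0.22 for interferon-stimulated, -0.26 for costimulation and -0.33 for pattern and Fc receptor genes beside -0.17 for all genes, while class I was at 0.09. Axl, a receptor for dying cells, had a median log2 ratio of 1.70 and missed the 2-fold line in 1 library.

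Some resident macrophage genes were lower in members. Of 14 tested genes of that list, none was higher and Lyve1, Gas6 and Cbr2 were lower in every library (list median -1.14). Lyve1, a hyaluronan receptor of perivascular macrophages, had no UMI in the members of 3 libraries and 67.2 CPM in Coch + Tmx P33 replicate 1, against 398, 169, 16.7 and 178 CPM in the class II-low cells of Coch + Tmx P26 replicate 2, Coch + Tmx P33 replicate 2, Coch P33 and Coch + Tmx P33 replicate 1. F13a1 was likewise at 0 in 3 libraries and at 179 CPM in Coch + Tmx P33 replicate 1. Apoe (0.66), C1qa (0.78) and C1qb (0.91) had median log2 ratios above 0, which turned to -0.46, -0.50 and -0.24 against the stricter class II-low cells.

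The class II-low population was mixed, and this moved with the genes lower in members. Of its 626 barcodes, 480 (76.7%) had at least 3 of the 8 leukocyte genes. Neuron and hair cell genes led the lower genes, with Pvalb, a calcium buffer of neurons and inner hair cells, at a median log2 ratio of -5.66. The hair cell list stood at 23.2, 51.2, 39.9 and 26.02 UMIs per 10000 in the class II-low cells of the 4 libraries and at 0.332, 13.4, 0.628 and 1.44 in the members. None of the tested genes of the neutrophil (8), erythroid (6), stromal (5), B cell (1), T and NK cell (1) or endothelial (1) lists was 2-fold higher or lower in all 4 libraries, with list medians from -3.01 to -0.37. The same held for 16 genes of the dissociation response (list median 0.46) and 10 of proliferation (0.56). With class II-low cells limited to those with at least 3 myeloid and 3 leukocyte genes (456 barcodes), 5221 genes were tested, rule genes included. Of those outside the rule, 31 were higher and 42 lower, of which 23 and 14 were also counted before. Cd74 (4.86), Ccl17, Mgl2 (4.15), Ccr2 (3.52) and H2-DMa (2.71) were still higher in every library. In this comparison 7 of 15 resident macrophage genes were lower (list median -2.35), among them Lyve1 (-4.44), F13a1 (-5.09), Mrc1 (-2.13) and Pf4 (-2.45), while H2-DMb2 fell short of the 2-fold line in 1 library.

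The members were divided by Apoe, an apolipoprotein gene that the rule did not use. No member lay between 150 and 260 Apoe UMIs per 10000, and 19 were below this gap and 40 above it. The split, placed at 200, was chosen after the values were seen and is a description with no test. On the low side Apoe ran from 1.94 to 150, with a gap from 15.7 to 30.7 that is wider on a log scale. There, C1qb plus C1qc reached 98.2 UMIs per 10000 in Coch + Tmx P26 replicate 2, against a median of 110 on the high side. Separate kinds of cell are thus not shown. The low side held 3 members in each of the 5 induced libraries and in Coch P33, 1 in Coch P12 replicate 2 and none in Coch P12 replicate 1. The high side held 0, 15 and 1 in Coch + Tmx P26, 8 and 8 in Coch + Tmx P33, 6 in Coch P33 and 2 in Coch P12 replicate 1. The number of high-Apoe members thus varied more between the later libraries than that of low-Apoe members. Coch + Tmx P26 replicate 2, with the largest share of members, had the most of them.

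**Figure D4:**
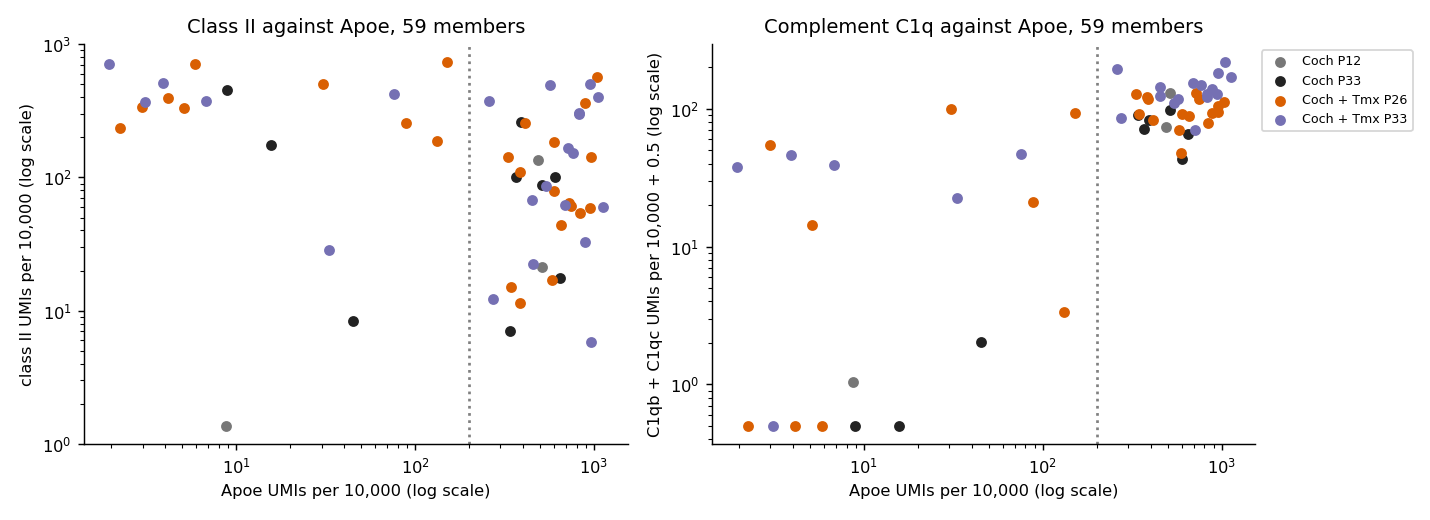
Class II UMIs (left) and C1qb plus C1qc UMIs (right) per 10000 against Apoe UMIs per 10000, 1 point for each of the 59 members coloured by group, all on log scales, with 0.5 added to the C1q values and the dotted line at 200. Members above 200 form a compact group in the right panel, while class II spans a wide range on both sides of the left panel.

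Apoe-high members carried the complement and lysosome genes of macrophages. C1qb was at 6224 CPM in the 40 Apoe-high members and at 1696 CPM in the 18 Apoe-low members left without the Coch P12 replicate 2 member. Lyz2, lysozyme, was at 11937 against 1193 CPM, Trem2, a lipid receptor of macrophages and microglia, at 742 against 45.1, Ctsb at 2750 against 271, Sepp1 at 1827 against 129 and Pf4 at 945 against 19.3. Cd83 and Siglech were detected in 21 and 16 Apoe-high members and in no Apoe-low member. All 40 Apoe-high members had C1qa, C1qb and C1qc UMIs.

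Apoe-low members carried several dendritic cell and monocyte genes. Ccl17 had 192 UMIs in 9 Apoe-low members and none in the Apoe-high ones. Cd209a had 106 UMIs in 8 and 1 UMI in the others, and S100a4 101 UMIs in 14 against 1 in the others. Ccr2 was at 490 against 76.9 CPM, Mgl2 at 1109 against 190 and Clec10a at 374 against 76.9. Other genes of the dendritic cell lists were lower in them, with Irf8 at 83.8 against 448 CPM and Cadm1 at 25.8 against 81.4, and so was the costimulation gene Cd83. Class II was higher as well, with H2-Aa at 20781 against 6961 CPM, Cd74 at 40368 against 18183 and H2-DMb1 at 1057 against 317, and Ciita was detected in 9 Apoe-low and 1 Apoe-high members. These genes did not mark every Apoe-low cell: a Coch + Tmx P33 replicate 1 member with 11 Ly6c2 UMIs, a monocyte gene, and the Coch P33 member with erythroid RNA had none of Mgl2, Cd209a, Clec10a, Ccr2 and Ccl17.

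**Figure D5:**
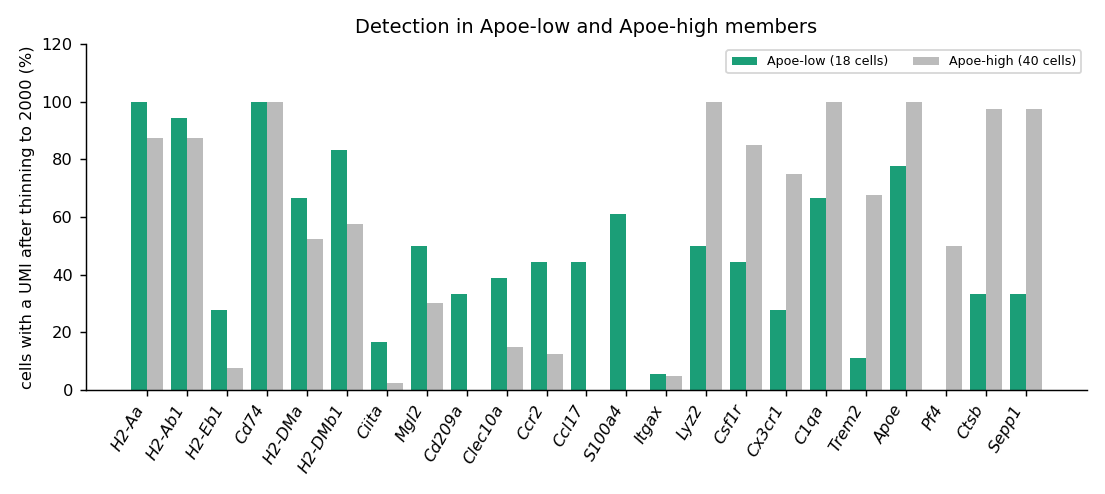
Share of members with at least 1 UMI of each gene after every cell was thinned to 2000 UMIs, in 18 Apoe-low members (green) and 40 Apoe-high members (grey). Cd209a, Ccl17 and S100a4 appear in the green bars alone, and Lyz2, C1qa, Ctsb and Sepp1 reach 97.5% to 100% of Apoe-high members.

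Depth differed between the sides, with medians of 8932 UMIs in the 19 Apoe-low (8809.5 in the 18) and 4516.5 in the 40 Apoe-high members. Detection was therefore compared after thinning each cell to 2000 UMIs, which left out none. Then Ccl17 was detected in 8 of 18 Apoe-low and 0 of 40 Apoe-high members, Mgl2 in 9 and 12, Ccr2 in 8 and 5, Trem2 in 2 and 27, and Cx3cr1 in 5 and 30. Several markers of other dendritic cell types were absent. Xcr1 and Clec9a, of cross-presenting dendritic cells, Cd207 of Langerhans cells, and Ccr7 and Ccl22 of migrating cells had no UMI in the 59 members. Flt3 had 3 UMIs and Zbtb46 5, while Siglech, which microglia also express, had 24 in 16 members. Fscn1 had 17 in 6 members, most of them in barcodes rich in RNA of other cell types. The Coch P12 replicate 2 member held 9, the 32131-UMI barcode with hair cell RNA 4 and the Mbp-rich Coch + Tmx P26 replicate 3 member 1. Before thinning, at least 3 UMIs of the proliferation genes Mki67 and Top2a together were found in 5 Apoe-low and 1 Apoe-high members. The latter was the 32131-UMI barcode with hair cell RNA. In the thinned cells, Mki67 was detected in 2 of 18 Apoe-low and 0 of 40 Apoe-high members, and Top2a in 3 and 1.

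With and without induction at P33, the members were set side by side, with 1 uninduced library and thus no test. Cd74 was at 18064 CPM in Coch P33 (exact 95% Poisson interval 17079 to 19092) and at 18054 and 38509 CPM in Coch + Tmx P33. H2-Aa was at 7881 CPM (7235 to 8570) against 8630 and 17747. Mgl2 was at 244 CPM (142 to 391) against 772 and 597, and C1qa at 2776 CPM (2398 to 3196) against 6537 and 4162. Cd209a was at 503 CPM (351 to 700) against 22.4 and 298, all 35 of its Coch P33 UMIs being from 1 cell. The Coch P33 sum of 69530 UMIs included 13139 of the barcode rich in erythroid RNA, and the Coch + Tmx P33 replicate 1 sum of 89341 included 32131 of the barcode with hair cell RNA, which lowers the CPM of other genes. Without these 2 barcodes, Cd74 was at 22096 CPM in Coch P33 and 26953 in Coch + Tmx P33 replicate 1, and H2-Aa at 9576 and 13197, an alternative added after seeing the data. For Cd74 and H2-Aa, the Coch + Tmx P33 libraries differed from each other by more than the nearer of them did from Coch P33.

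A test across libraries was possible in 1 contrast, at a lower minimum than planned. With at least 5 members per library, neither P12 nor Coch + Tmx P26 kept 2 libraries. With at least 3, Coch + Tmx P33 (11 and 11 members) was compared with Coch + Tmx P26 (3, 18 and 4), and edgeR called none of 1562 genes outside the rule (0%), with 67 at an unadjusted p under 0.05, whereas DESeq2 called none and had 34. Both counts are smaller shares of the genes than the 0.05 that would fall there if no gene had changed. Ctsb, a lysosomal protease, had one of the smallest unadjusted values, at 357, 1030 and 716 CPM in Coch + Tmx P26 and 2977 and 2544 in Coch + Tmx P33 (log2 fold change 1.96, edgeR adjusted p = 0.666). Ctsb was also among the genes higher in Apoe-high members, which were 0 of 3, 15 of 18 and 1 of 4 in Coch + Tmx P26 and 8 of 11 in both Coch + Tmx P33 libraries. Its part in this difference was not tested. Without Coch + Tmx P26 replicate 2, 9 genes were called.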

How the data were processed

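Organ of Corti cells were captured with droplet single-cell RNA-seq. The deposited files hold raw UMI counts per gene and barcode for 27998 genes, made by the authors with Cell Ranger on build mm10; the version is not given in the sources used here. The barcode filter, the membership rule and the gene lists were applied in Python 3.11.15, and the members, lists and tests were chosen with earlier results of these data known. Filtering left out 1954 barcodes under 500 genes and 84 more at or over 25% mitochondrial UMIs. Doublet scores came from scrublet in scanpy 1.11.5, at 0.8% of barcodes per 1000, which marked 41 barcodes.

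Groups followed the sample titles. Shares of members were compared with a two-sided exact permutation test that enumerated every assignment of libraries to the groups compared and doubled the smaller tail, and were adjusted by Benjamini-Hochberg over 6 comparisons. Exact binomial (Clopper-Pearson) and Poisson intervals and the limit of 3 counts cover counting error only. Gene tests used member counts summed per library, with edgeR 4.0.16 (quasi-likelihood, TMM) in R 4.3.3, and DESeq2 1.42.0 as an alternative. Both P12 libraries had under 5 members, and so did 2 Coch + Tmx P26 libraries, so the planned contrasts at 5 members per library were not run and a minimum of 3 was chosen after seeing the data. The contrast was tested on simulated data for 1569 genes, where 135 of 200 genes changed 8-fold were recovered with 6 false calls. Named genes were the rule genes, the leading genes of each list and the genes with the largest ratios. Those of the Apoe split were chosen after their values were seen. Of the listed genes, 8 symbols were not found among the names in the files. Gene names follow the files, and promoter sequences are from RefSeq, GRCm38.p6, the same assembly as mm10.

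Alternatives were other class II thresholds, thinning, mitochondrial, doublet and stromal filters, other comparison cells and leaving out each library.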

Additional observations from a re-analysis of the deposited data

Results flagged for a closer look

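The share of members among myeloid barcodes was 34.0% in Coch + Tmx P26 replicate 2, and the next of the 5 induced libraries was at 11%. That gap was 0.768 of the whole range of the 5 values, above the critical value of 0.71 for a group of this size. Chance alone gives such a gap in about 1 in 20 groups. Of the 18 members of this library, 15 were Apoe-high, and it had the fewest class II-low barcodes, 35, and the fewest UMIs, 3972800. As a share of all kept barcodes (3.16%) the same library did not stand apart by this measure.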

How the results depend on the processing

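Leaving out 1 library at a time, the difference in share of kept barcodes ran from 0.592 to 1.46 percentage points (induced minus uninduced), 1.14 to 1.69 (later ages minus P12) and -0.0580 to 1.34 (Coch + Tmx P33 minus Coch + Tmx P26). In share of myeloid barcodes it ran from 0.380 to 11.7, 8.84 to 14.8 and -10.8 to 4.17. The last of each was reversed, to -0.0580 without Coch + Tmx P26 replicate 1 and to 4.17 without replicate 2. No share comparison passed the threshold in any setting, the lowest adjusted p being 0.143 by exact permutation test.

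The 50 genes at least 2-fold higher in members became 31 with the stricter class II-low cells and, leaving out 1 library, 62 to 113, with 113 without Coch + Tmx P26 replicate 2 and 85 without Coch + Tmx P33 replicate 1, where fewer libraries had to meet the line. The edgeR count of 0 became 24 with no filter on low counts and ran from 0 to 9 over libraries left out, with 9 without Coch + Tmx P26 replicate 2. The cause was not tested. With the replicate number as a block it was 0 of 991 genes. Deviations of same-numbered libraries from their group means correlated at 0.0706 and 0.0431. These values cannot decide whether such libraries share an animal or a batch. With n = 2 the Coch + Tmx P33 deviations mirror each other, and Coch + Tmx P26 replicate 1 had only 3 members. The gene contrast at 3 members, the leukocyte and other-RNA criteria and the stricter comparison cells were chosen after seeing the data. The planned gene contrasts at 5 members were not run, because too few libraries had them, nor was the stromal filter on the gene contrast. Depth limits the rest: the members' sums held 8788 to 90316 UMIs per library.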

Other observations

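Barcodes with class II RNA outside the rule differed in kind. In Coch + Tmx P26 replicate 2, a barcode with 320 class II and 406 Cd74 UMIs had 8 Mgl2 UMIs, 1 Cd209a UMI and 1 of the 5 myeloid genes. The counts of both chains were alike in the 3 class II-rich barcodes of Coch P12 replicate 1, which had 113, 110 and 130 H2-Aa UMIs and 114, 112 and 138 H2-Ab1 UMIs. Over all 59 members, H2-Ab1 was at 0.735 of the H2-Aa count. Across the 59 members, Spearman's rho between Apoe and class II UMIs per 10000 was -0.27, and between Apoe and C1qb plus C1qc 0.70, and without the Coch P12 replicate 2 member they were -0.31 and 0.68. These members come from 8 libraries of differing depth, so both are descriptions.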
